A study of Mus musculus with 6 samples.

Results

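The genes described here encode the enzymes and regulators of glycolysis, gluconeogenesis, glycogen turnover and the pentose phosphate pathway in mouse liver. Of 53 listed symbols, 52 matched the symbol column of the deposited table, which holds 27179 genes, and all 52 carried an adjusted p there, as did 14257 genes in all. The remaining symbol, Eno2, belongs to a row without a symbol and was found by its Entrez identifier. The rule takes genes by pathway and uses no measured value, but the list was chosen with earlier results of these data known. It was sorted into hexose phosphorylation (4 tested genes), upper glycolysis (7), control by fructose bisphosphate (4), lower glycolysis (8), lactate (3), fructose entry (2), gluconeogenesis (6), glycogen (10) and pentose phosphate (8).

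To ask how hepatocyte LSD1 shapes liver gene expression, poly-A RNA libraries were made from the livers of 6 C57BL/6 mice that all carried floxed Lsd1 alleles. The 3 LSD1-LKO mice received AAV8-TBG-Cre through the tail vein at 6 to 7 weeks of age, and the 3 Control mice received AAV8-TBG-GFP in the same way. All were placed on a high-fat diet 1 week later, for 12 weeks by the series description, although the study's methods give a shorter time. The floxed alleles, the viral vector and the diet were thus shared by both groups, the thyroxine-binding globulin (TBG) promoter confines Cre to hepatocytes while the other liver cells keep the gene, and the labels give no sex.

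Glycolysis splits glucose into pyruvate in the cytosol, and the liver can run much of the same chain in reverse to make glucose from lactate, amino acids and glycerol. Separate enzymes carry the irreversible steps in each direction: hexokinases, phosphofructokinase and pyruvate kinase on the way down, and phosphoenolpyruvate carboxykinase, fructose bisphosphatase and glucose phosphatase on the way up. Glycogen stores glucose in the fed liver, and the pentose phosphate pathway makes NADPH and ribose phosphate from it. Several steps have more than one isoform, of which hepatocytes favour one and muscle, brain or proliferating cells another.

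The deposited table holds 1 comparison of the groups and no value per liver, so levels in single livers, the overlap of the groups and the depth of each library could not be shown. How far the livers of a group differed is thus reflected only indirectly, in the SE of each fold. Levels are given as CPM, a gene's share of the summed base means put on the usual CPM scale, and a level in Control or LSD1-LKO liver is the one implied by that mean and the fold with equal group sizes. Changes are log2 fold changes ± SE of LSD1-LKO over Control (n = 3 livers per group), with the DESeq2 adjusted p of the table. A gene is said to have risen or fallen where that p was under 0.05. The deposited folds had been drawn toward 0, most of all for scarce genes, whose changes are therefore understated. Fewer cells of a type cannot be told apart from less RNA per cell in whole liver. Kdm1a, which encodes LSD1, had an implied level of 15.7 CPM in Control and 5.55 CPM in LSD1-LKO liver (−1.50 ± 0.16, adjusted p = 1.32e-19).

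Of the 52 tested members 17 rose and 4 fell, and most of the rises lay on the glycolytic chain. The 17 make up 32.7% of the members, beside 12.3% of all tested genes called higher. The 4 make up 7.69%, beside 5.93% of all tested genes called lower. The median fold of the members was 0.16, against −0.01 for all tested genes. Among members of at least 10 CPM, 13 of 35 rose, where 12.0% of all genes at such levels were called higher, and 4 of 35 fell, where 9.85% were called lower. Once all folds were shifted so that genes of 10 CPM or more had a median of 0, 18 members rose and 1 fell, and over all tested genes the calls moved from 1754 higher and 846 lower to 1992 higher and 573 lower.

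**Figure D1:**
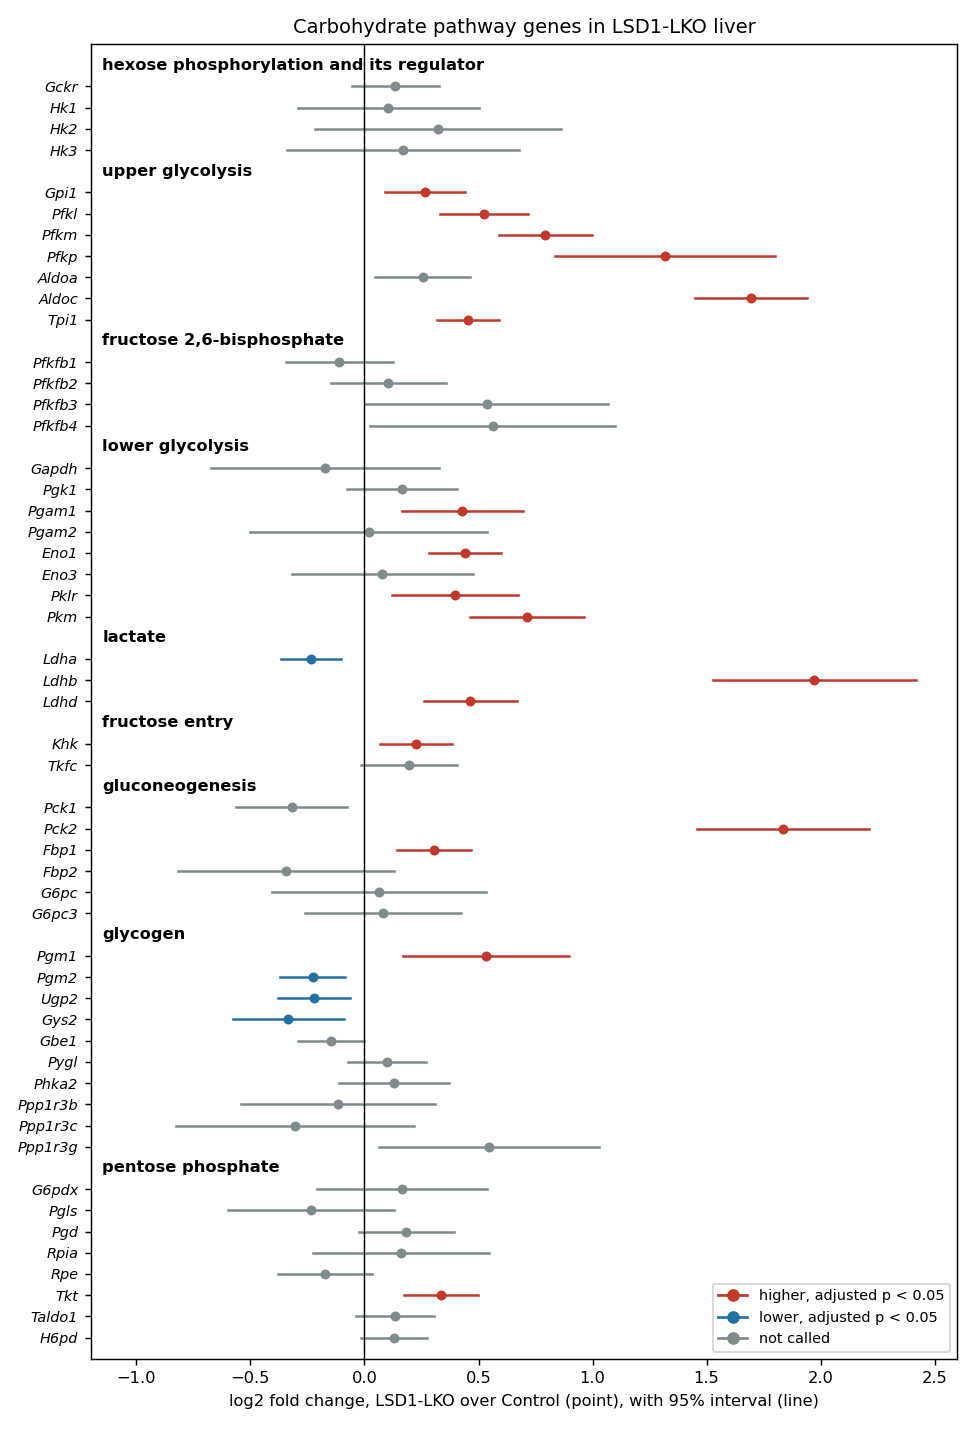
Log2 fold change of LSD1-LKO over Control (x axis) for the 52 tested members, grouped by role, with points for the fold and lines for the 95% interval from its SE. Ldhb at 1.97, Pck2 at 1.84, Aldoc at 1.70 and Pfkp at 1.32 stand to the right of the other members, and the called falls, Ldha, Pgm2, Ugp2 and Gys2, lie between −0.33 and −0.22.

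No abundant member had a large fold. Of the 4 members that rose by at least 1 log2 unit, Ldhb, Pfkp and Pck2 had mean levels of 2.97, 3.93 and 7.09 CPM, under the median of 11.4 CPM over all tested genes, and Aldoc had 28.7 CPM. Of all tested genes, 3.62% had folds of that size or more. The other 13 risen members had folds between 0.22 and 0.79. Among the 21 members of at least 100 CPM, 8 rose (38.1%) and 4 fell (19.05%), and the folds ran from −0.33 to 0.46. Over the wider range of all tested genes of at least 10 CPM, 12.0% were called higher and 9.85% lower. The SE was 0.07 for Ldha, at 666 CPM, and 0.27 for Hk2, at 0.815 CPM. An abundant gene could have a large SE as well, with 0.24 for G6pc at 401 CPM.

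**Figure D2:**
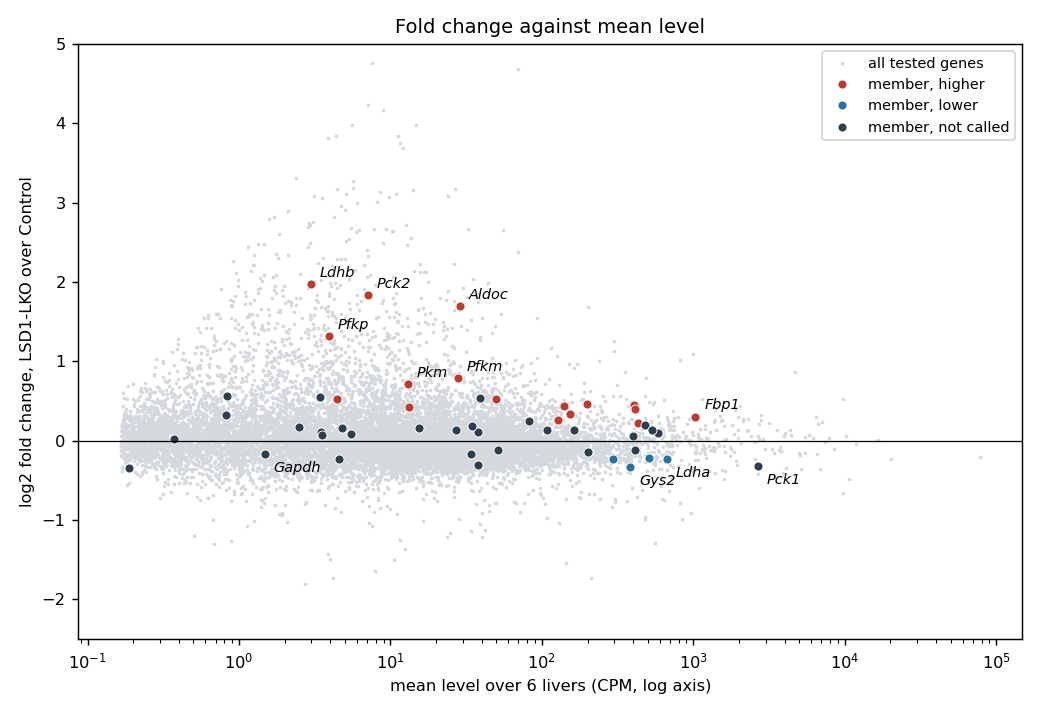
Log2 fold change of LSD1-LKO over Control (y axis) against mean level over 6 livers in CPM (x axis, log scale) for 14257 tested genes (grey) and the 52 members (red higher, blue lower, dark not called). The 4 largest member folds sit at or below 28.7 CPM, while Pck1, the most abundant member at 2663 CPM, lies at −0.32.

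None of the 3 hexokinases on the list, nor the regulator Gckr, was called. Gckr, the regulatory protein that holds glucokinase inactive in the hepatocyte nucleus, was the most abundant of them at 164 CPM and had a fold of 0.14 ± 0.10 (95% interval −0.06 to 0.33, adjusted p = 0.405). The hexokinases Hk1, Hk2 and Hk3, which serve mainly other cell types, were scarce at 3.50, 0.815 and 2.50 CPM. Their folds were 0.10 ± 0.20, 0.32 ± 0.27 and 0.17 ± 0.26, and at this precision a change of the size seen in members of at least 100 CPM was not detectable.

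In upper glycolysis, from glucose phosphate to the triose phosphates, 6 of 7 members rose and the seventh had a positive fold. The 6 make up 85.7% of the group, beside 12.3% of all tested genes called higher. Gpi1, which converts glucose phosphate to fructose phosphate, had an implied level of 116 CPM in Control and 140 CPM in LSD1-LKO liver (0.26 ± 0.09, 95% interval 0.09 to 0.44, adjusted p = 0.0201). All 3 subunits of phosphofructokinase, the committed step of the pathway, rose. The liver subunit Pfkl went from 40.7 to 58.5 CPM (0.52 ± 0.10, 0.33 to 0.72, adjusted p = 2.53e-06). The muscle subunit Pfkm, at 20.3 CPM in Control and 35.2 CPM in LSD1-LKO liver, rose by 73.3% (0.79 ± 0.10, 0.59 to 0.999, adjusted p = 1.95e-12). The platelet subunit Pfkp was scarce, with 2.25 and 5.61 CPM implied (1.32 ± 0.25, 0.83 to 1.80, adjusted p = 1.94e-06). The interval of Pfkp did not reach that of Pfkl, but the difference between their folds was not tested. Tpi1, which interconverts the triose phosphates, was the most abundant gene of the group and went from 344 to 472 CPM (0.45 ± 0.07, 0.32 to 0.59, adjusted p = 3.37e-09).

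Among the aldolases, which split fructose bisphosphate, Aldoc showed the smallest adjusted p of all members. This form is known from brain. Its implied level was 13.6 CPM in Control and 43.9 CPM in LSD1-LKO liver (1.70 ± 0.13, 95% interval 1.45 to 1.94, adjusted p = 3.43e-39), and 1.16% of all tested genes had a higher fold. Aldoa, the form of muscle and red cells, had 75.3 and 89.8 CPM and did not pass the threshold (0.25 ± 0.11, 0.05 to 0.46, adjusted p = 0.0752). It passed with recentred folds (adjusted p = 0.0297) and without the trend of the fold on level (adjusted p = 0.0321) or on transcript length (adjusted p = 0.0338).

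The Aldoc promoter is shown because the gene carried the most certain change. The 250 bases before the outer RefSeq start of Aldoc (GRCm38.p6, chr11:78322823-78323072, + strand) are given below, and hold none of the 3 motifs that were searched. These were the C/EBP-ATF composite TGATGNAA, the E-box CACGTG and the palindromic carbohydrate response element CACGGGNNNNNCCCGTG, which 3.45%, 6.02% and 0.00304% of all 32851 promoter windows hold. Both strands were searched, with no overlap between matches in the sequences shown. Capitals mark a match in the promoters that follow.
Aldoc: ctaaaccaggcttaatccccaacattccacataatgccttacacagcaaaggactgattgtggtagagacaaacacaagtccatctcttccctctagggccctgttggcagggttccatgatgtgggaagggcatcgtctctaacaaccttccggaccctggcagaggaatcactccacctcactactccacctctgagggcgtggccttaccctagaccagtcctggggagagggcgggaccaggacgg

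The bifunctional enzymes of the Pfkfb family make and remove fructose bisphosphate in its signalling form, the strongest activator of phosphofructokinase and an inhibitor of fructose bisphosphatase. None of the 4 passed the test. Pfkfb1, the liver form, was the most abundant at 51.5 CPM and had a fold of −0.11 ± 0.12 (95% interval −0.35 to 0.12, adjusted p = 0.630). Pfkfb2 stood at 0.10 ± 0.13. Pfkfb3 and Pfkfb4 had larger but imprecise folds of 0.54 ± 0.27 (adjusted p = 0.176) and 0.56 ± 0.27 (adjusted p = 0.153), the former at 39.1 CPM and the latter at 0.835 CPM.

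Of 8 tested genes of lower glycolysis, from triose phosphate to pyruvate, 4 rose and none fell. The share that rose was 50%, beside 12.3% of all tested genes. Pgam1, the phosphoglycerate mutase of most tissues, had implied levels of 11.4 CPM in Control and 15.3 CPM in LSD1-LKO liver (0.43 ± 0.14, 95% interval 0.16 to 0.69, adjusted p = 0.0115). Eno1, the general enolase, went from 119 to 161 CPM (0.44 ± 0.08, 0.28 to 0.60, adjusted p = 1.22e-06). Eno1b, a retrotransposed copy of Eno1, was listed at 3.87 CPM with a fold of 0.29 ± 0.21, and how reads of the pair were divided is not known. Both pyruvate kinase genes, which catalyse the last step, rose. The liver gene Pklr was the most abundant of the group, at 358 CPM in Control and 471 CPM in LSD1-LKO liver (0.40 ± 0.14, 0.12 to 0.67, adjusted p = 0.0292). Pkm, whose products act in muscle and in dividing cells, went from 9.82 to 16.1 CPM (0.71 ± 0.13, 0.46 to 0.96, adjusted p = 5.79e-07).

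The other 4 genes of lower glycolysis were not called. Pgk1, which yields the first ATP of the pathway, had a fold of 0.17 ± 0.12 at 15.5 CPM. The muscle genes Pgam2 and Eno3 stood at 0.02 ± 0.27 and 0.08 ± 0.20, with 0.370 and 3.54 CPM. Gapdh, the dehydrogenase that most tissues express in quantity, was listed at only 1.48 CPM, with a fold of −0.17 ± 0.25 (95% interval −0.67 to 0.33, adjusted p = 0.745). The table also holds 9 rows named as Gapdh pseudogenes, which together had 2.50 CPM, more than the gene itself. How reads with several matches were counted is not given in the sources used here, so the level and the fold of Gapdh are uncertain. By qPCR, a different measure, the study reports higher Gapdh mRNA in LSD1-LKO liver.

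The promoter of the liver start of Pklr is shown because it holds the carbohydrate response element, the site through which glucose is known to raise transcription of this gene in liver (GRCm38.p6, chr3:89136373-89136622, + strand). The match lies 170 to 154 bases before the start, and no other window held this exact palindrome. Looser forms of the element were not searched, so the other promoters were not shown to lack it. Mlxipl, which encodes the factor ChREBP that binds such elements, had a fold of 0.05 ± 0.11 at 256 CPM (adjusted p = 0.863). That fold is of mRNA, and whether ChREBP activity changed was not tested.
Pklr: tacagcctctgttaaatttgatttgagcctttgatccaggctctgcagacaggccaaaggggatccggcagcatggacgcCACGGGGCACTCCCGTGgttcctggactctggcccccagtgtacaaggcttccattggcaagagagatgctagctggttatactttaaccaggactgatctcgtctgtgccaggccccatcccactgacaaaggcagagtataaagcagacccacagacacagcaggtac

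Genes of lactate metabolism moved in both directions, and all 3 were called. The 2 rises and 1 fall make up 66.7% and 33.3% of a very small group, beside 12.3% and 5.93% of all tested genes. Ldha, the muscle-type subunit of lactate dehydrogenase and the main one in liver, fell from 720 to 612 CPM (−0.23 ± 0.07, 95% interval −0.36 to −0.10, adjusted p = 0.00399). It was the only called fall that kept its call under each of the 6 alternatives. Ldhb, the heart-type subunit, had the highest fold of all members, with 1.21 CPM in Control and 4.74 CPM in LSD1-LKO liver (1.97 ± 0.23, 1.53 to 2.42, adjusted p = 2.07e-16). Ldhd, the mitochondrial enzyme for the D form of lactate, went from 166 to 229 CPM (0.46 ± 0.10, 0.26 to 0.67, adjusted p = 1.36e-04). The rise of Ldhb left it a minor transcript. Per kilobase of transcript it made up 0.162% of the implied Ldha and Ldhb total in Control and 0.743% in LSD1-LKO liver, and that total was 14.5% lower in LSD1-LKO liver.

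The Ldhb promoter is given as that of the member with the largest fold (GRCm38.p6, chr6:142507958-142508207, − strand). It holds none of the 3 motifs. Its CpG content was 0.717 of that expected from its base composition, against 0.265 for the Aldoc promoter and 0.271 for that of Pklr.
Ldhb: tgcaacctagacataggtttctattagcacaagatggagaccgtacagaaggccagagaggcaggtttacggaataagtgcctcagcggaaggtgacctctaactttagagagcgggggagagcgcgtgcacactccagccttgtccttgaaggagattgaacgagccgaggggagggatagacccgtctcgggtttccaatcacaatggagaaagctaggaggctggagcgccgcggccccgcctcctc

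Fructose enters the chain at the triose phosphates. Khk, the fructokinase that traps fructose in hepatocytes, rose from 397 to 464 CPM (0.22 ± 0.08, 95% interval 0.07 to 0.38, adjusted p = 0.0326). Tkfc, which phosphorylates the glyceraldehyde made from fructose, was more abundant at 476 CPM and had a fold of 0.19 ± 0.11 (−0.01 to 0.40, adjusted p = 0.223).

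Of 6 tested genes of gluconeogenesis 2 rose (33.3%, beside 12.3% of all tested genes) and none fell. Neither the cytosolic Pck1 nor G6pc was called. Pck2, the mitochondrial phosphoenolpyruvate carboxykinase, had an implied level of 3.10 CPM in Control and 11.1 CPM in LSD1-LKO liver (1.84 ± 0.19, 95% interval 1.46 to 2.21, adjusted p = 1.48e-19). Pck1, the cytosolic enzyme induced by fasting, was the most abundant member of all, at 2956 CPM in Control and 2369 CPM in LSD1-LKO liver. Its fold of −0.32 ± 0.12 (−0.56 to −0.08) missed the threshold with an adjusted p of 0.0533 and passed it when only genes of 10 CPM or more were tested (adjusted p = 0.0445). Fbp1, the liver fructose bisphosphatase, rose from 918 to 1135 CPM (0.31 ± 0.08, 0.14 to 0.47, adjusted p = 0.00212). G6pc, the phosphatase that releases free glucose, had a fold of 0.06 ± 0.24 at 401 CPM, and its wide interval of −0.40 to 0.53 covers changes in both directions. Neither G6pc3, the general form (0.08 ± 0.18, 5.52 CPM), nor Fbp2, the muscle form (−0.34 ± 0.24, 0.188 CPM), was called.

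Per kilobase of transcript, Pck2 made up 0.119% of the implied Pck1 and Pck2 total in Control and 0.530% in LSD1-LKO liver, and the total was 19.5% lower in LSD1-LKO liver. The Pck2 promoter is shown because it is 1 of 2 member promoters with the C/EBP-ATF composite (GRCm38.p6, chr14:55540016-55540265, + strand), a motif known from genes of the amino acid response. The match is on the reverse strand, 103 to 96 bases before the start. The other member is G6pc. Atf4, which encodes a factor that binds such motifs, stood at −0.02 ± 0.12 and 36.1 CPM (adjusted p = 0.955). This is an mRNA value, and the part of the factor in the rise of Pck2 was not tested.
Pck2: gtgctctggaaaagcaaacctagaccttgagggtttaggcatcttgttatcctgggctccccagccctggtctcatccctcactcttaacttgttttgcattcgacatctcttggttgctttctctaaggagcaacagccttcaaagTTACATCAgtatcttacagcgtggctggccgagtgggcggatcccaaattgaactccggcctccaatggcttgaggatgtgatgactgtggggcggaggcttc

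**Figure D3:**
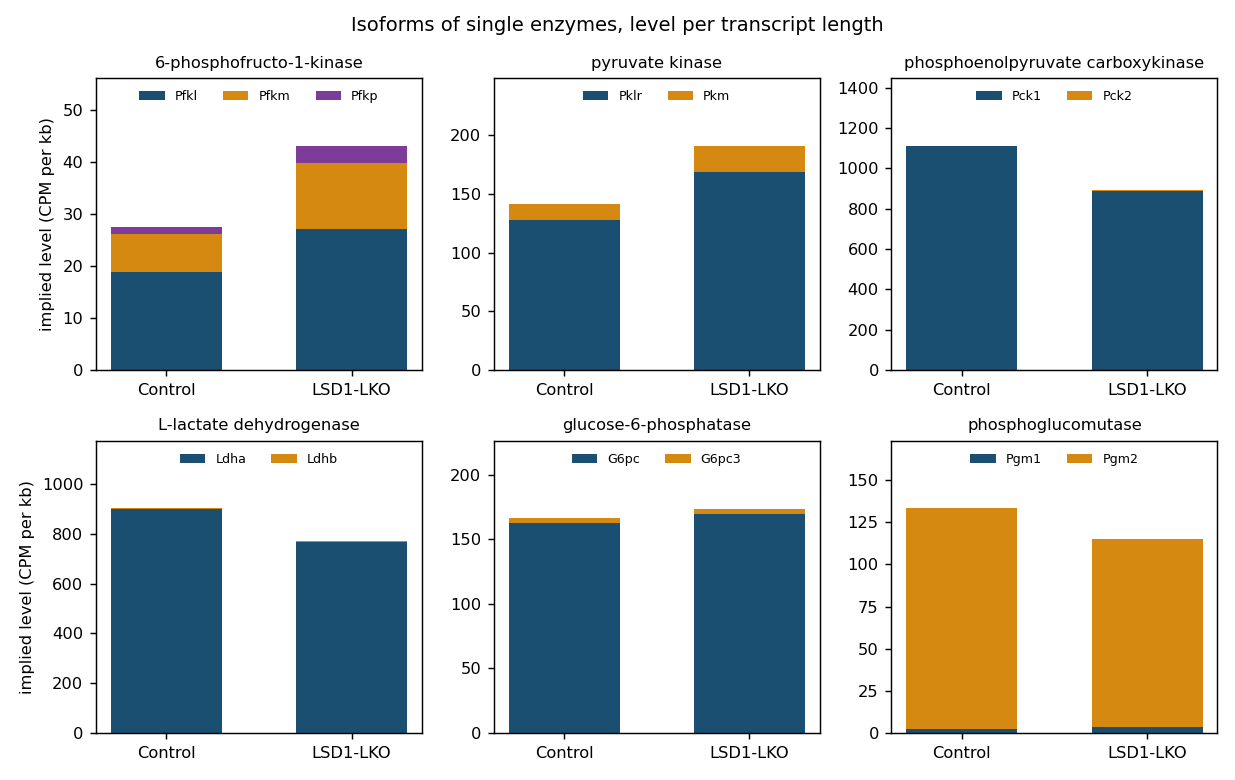
Implied level in CPM per kilobase of transcript (y axis, starting at 0) in Control and LSD1-LKO liver, stacked by isoform for 6 enzymes, computed from the mean level and the shrunken fold and without error bars, since the table holds no values per liver. The phosphofructokinase total is 56.7% and the pyruvate kinase total 34.7% higher in LSD1-LKO liver, while Pck2 at 0.530% and Ldhb at 0.743% of their enzymes in LSD1-LKO liver are barely visible.

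The main isoform of each enzyme stayed the same in both groups. Pfkl made up 68.7% of the implied phosphofructokinase total per kilobase in Control and 63.0% in LSD1-LKO liver, Pfkm 26.4% and 29.1%, and Pfkp 4.95% and 7.86%. Pklr supplied 90.4% of the pyruvate kinase total in Control and 88.4% in LSD1-LKO liver, and Pkm 9.55% and 11.6%. The shares depended on the length used, here the median over annotated transcripts, which is only 725 bases for Pkm. With the longest transcript of each gene, Pfkl made up 59.0% in Control and 53.6% in LSD1-LKO liver, and Pfkm 38.1% and 41.7%. By the longest transcript of each gene Pkm made up 3.17% in Control and 3.92% in LSD1-LKO liver, Pfkp 2.93% and 4.62%, Pck2 0.0604% and 0.269%, and Ldhb 0.233% and 1.07%, while the phosphofructokinase total was 58.1% and the pyruvate kinase total 32.7% higher in LSD1-LKO liver. The G6pc share of the glucose phosphatase pair was 97.8% in both groups. These shares rest on folds alone and have no error of their own.

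The glycogen genes held 3 of the 4 called falls. Of 10 tested, 3 fell (30%) and 1 rose (10%), beside 5.93% and 12.3% of all tested genes. The table uses the symbols of the phosphoglucomutases the other way round from RefSeq: its Pgm2 has the Entrez identifier 72157, which RefSeq names Pgm1, and its Pgm1 has 66681, which RefSeq names Pgm2. The table's Pgm2, the phosphoglucomutase that links glucose phosphate to glycogen, fell from 320 to 273 CPM (−0.23 ± 0.07, 95% interval −0.37 to −0.08, adjusted p = 0.0131). Ugp2, which makes UDP-glucose, fell from 552 to 474 CPM (−0.22 ± 0.08, −0.38 to −0.06, adjusted p = 0.0351). Gys2, the liver glycogen synthase, fell from 427 to 339 CPM (−0.33 ± 0.12, −0.58 to −0.09, adjusted p = 0.0414). These 3 genes catalyse successive steps from glucose phosphate to the glycogen chain. Each call was lost with recentred folds, at an adjusted p of 0.0597 for Pgm2, 0.116 for Ugp2 and 0.0908 for Gys2, and again once the trend of the fold on level was removed (0.0665, 0.125 and 0.0968). The call of Gys2 was also lost without a filter on level (0.0535) and without the length trend (0.0506). The table's Pgm1, a scarce gene, rose from 3.65 to 5.28 CPM (0.53 ± 0.19, 0.17 to 0.90, adjusted p = 0.0275).

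The other 6 glycogen genes on the list were not called. Gbe1, the branching enzyme, had a fold of −0.15 ± 0.07 (adjusted p = 0.169), and Pygl, the liver phosphorylase and the most abundant member of the group at 585 CPM, one of 0.10 ± 0.09 (95% interval −0.07 to 0.27, adjusted p = 0.520). Phka2, a subunit of the kinase that activates phosphorylase, stood at 0.13 ± 0.12. The targeting subunits of the glycogen phosphatase varied widely, with −0.11 ± 0.22 for Ppp1r3b, −0.30 ± 0.27 for Ppp1r3c and 0.55 ± 0.25 for Ppp1r3g (adjusted p = 0.113).

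In the pentose phosphate pathway 1 of 8 genes rose (12.5%, beside 12.3% of all tested genes) and none fell. Tkt, a transketolase of the branch that returns pentoses to glycolysis, rose from 135 to 170.3 CPM (0.34 ± 0.08, 95% interval 0.17 to 0.50, adjusted p = 5.87e-04). Its partner in that branch, Taldo1, had a fold of 0.13 ± 0.09 at 107 CPM (adjusted p = 0.329). The oxidative enzymes G6pdx, Pgls and Pgd stood at 0.16 ± 0.19, −0.23 ± 0.19 and 0.18 ± 0.11, and the pentose isomerase and epimerase genes Rpia and Rpe at 0.16 ± 0.20 and −0.17 ± 0.11. H6pd, which runs the oxidative steps inside the endoplasmic reticulum, was the most abundant of the group at 534 CPM and had a fold of 0.13 ± 0.07 (−0.01 to 0.28, adjusted p = 0.247).

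**Figure D4:**
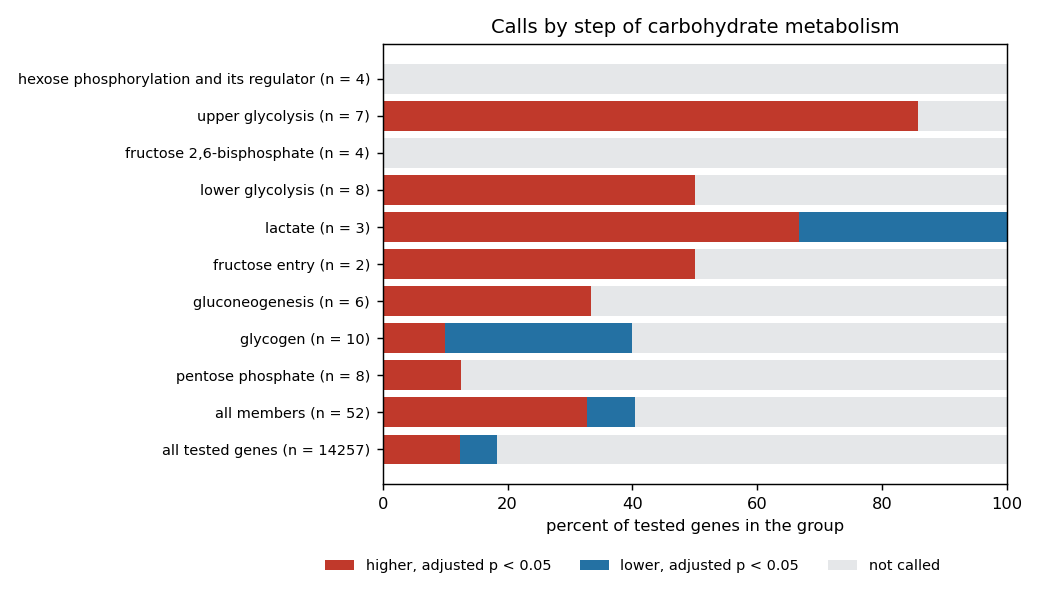
Percent of tested genes called higher (red), called lower (blue) or not called (grey) in LSD1-LKO liver (x axis) for each role, all 52 members and all 14257 tested genes, with the number tested in parentheses. Upper glycolysis has 85.7% higher, glycogen 30% lower, and the hexose phosphorylation and fructose bisphosphate control groups hold no call.

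Across the 15 tested genes of upper and lower glycolysis 10 rose (66.7%, beside 12.3% of all tested genes) and 1 had a negative fold. Their median fold was 0.43. The medians were 0.07 for gluconeogenesis, −0.13 for glycogen and 0.15 for pentose phosphate. These groups are small, and whether they differ from each other was not tested. Of the 31 members not called, 22 had positive and 9 negative folds, between −0.34 and 0.56, and the unadjusted 95% interval of 6 of them did not include 0.

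Genes next to these pathways were taken from 6 further lists with 81 tested genes, of which 13 rose and 6 fell. These counts, 16.05% and 7.41% of the genes, lie near the 12.3% and 5.93% of all tested genes. Transporters of hexoses and monocarboxylates held 5 rises among 12 genes, with no fall: the monocarboxylate carrier Slc16a1 (0.80 ± 0.09, adjusted p = 1.42e-16), the fructose transporter Slc2a5 (0.93 ± 0.12, adjusted p = 2.64e-12) and Slc2a8 (0.51 ± 0.12, adjusted p = 2.75e-04) were the most certain. Slc2a2, the main glucose transporter of hepatocytes, was at −0.21 ± 0.08 with an adjusted p of 0.0514. Among 17 other glycogen genes only Pygb, the brain form of phosphorylase, was called, with a rise of 1.63 ± 0.17 at 9.37 CPM (adjusted p = 8.45e-19).

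Genes that handle pyruvate were called in both directions, with 2 rises and 2 falls among 11. Each count is 18.2% of the list, beside 12.3% of all tested genes called higher and 5.93% called lower. The pyruvate dehydrogenase kinase Pdk3 rose (1.72 ± 0.27, adjusted p = 1.16e-08) at a mean level of 1.10 CPM, as did Pdp1, a phosphatase of that complex (0.78 ± 0.25, adjusted p = 0.0158). The mitochondrial pyruvate carrier subunit Mpc2 fell (−0.30 ± 0.08, adjusted p = 0.00151). Of 15 genes for galactose, sorbitol and glycerol entry, 2 rose (13.3%) and 1 fell (6.67%), which lies near the shares of all tested genes. Akr1b3, the aldose reductase of the sorbitol route, rose (1.36 ± 0.24, adjusted p = 3.93e-07), as did the galactokinase Galk1 (0.44 ± 0.11, adjusted p = 8.25e-04). Gpd1l fell (−0.30 ± 0.09, adjusted p = 0.0105). Of only 6 ribose genes, 2 rose (33.3%) and 1 fell (16.7%). Prps2, which activates ribose phosphate for nucleotide synthesis, rose (0.88 ± 0.12, adjusted p = 2.15e-11), as did Prps1l3 (0.26 ± 0.09, adjusted p = 0.0284). The sedoheptulose kinase Shpk fell (−0.28 ± 0.08, adjusted p = 0.00578).

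Of 20 transcription factors of glucose metabolism 3 were called, 1 higher (5%) and 2 lower (10%), beside 12.3% and 5.93% of all tested genes. Klf15 (−0.34 ± 0.10, adjusted p = 0.00477) and Epas1 (−0.27 ± 0.09, adjusted p = 0.0174) fell and Cebpa rose (0.24 ± 0.09, adjusted p = 0.0485). Foxo1, Hif1a and Ppargc1a had folds of −0.15 ± 0.10, −0.17 ± 0.10 and 0.20 ± 0.13 and were not called.

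Since isoforms of muscle, brain and dividing cells were among the members that rose, markers of other cell types were read beside them. None of 9 hepatocyte markers was called. The 10 macrophage markers held no call and summed to an implied 196 CPM in Control and 203 CPM in LSD1-LKO liver, the 6 cholangiocyte markers none with 65.4 and 65.2 CPM, the 8 stellate cell markers none with 122 and 132 CPM, and the 8 endothelial markers none with 177 and 153 CPM. Of 8 skeletal muscle markers Acta1, Ckm, Mb and Myl1 were listed at 0 and Mylpf, the only one tested, had a fold of −0.14 at 0.748 CPM. The calls among markers were Cd4 in the lymphocyte list (1.39 ± 0.20, adjusted p = 1.69e-10), whose 8 genes summed to 4.75 CPM in Control and 8.91 CPM in LSD1-LKO liver, and Alas2 in the erythroid list (0.73 ± 0.11, adjusted p = 5.39e-09), whose globin genes Hbb-bs and Hba-a2 were not called. The part of these markers in the results was not tested.

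Exons of 11 of the 21 called members overlap those of another annotated gene, and the strand used in counting is not given in the sources used here. Of these partners 8 had a row and 6 an adjusted p. Only Znrf1, which overlaps Ldhd from the opposite strand, was itself called, with a fold of 0.31 ± 0.09 at 54.9 CPM (adjusted p = 0.00311). Pitrm1, beside Pfkp, was more abundant than the member at 41.9 CPM and had a fold of 0.01 ± 0.09. Senp1, Hcn3 and Spsb2, beside Pfkm, Pklr and Tpi1, had 8.98, 26.3 and 11.5 CPM and folds of 0.06, 0.08 and −0.04.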

How the data were processed

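Liver poly-A RNA of 3 LSD1-LKO and 3 Control mice was sequenced. Per the labels and the study's methods, the authors used STAR for mapping to mm10, StringTie for transcript assembly and DESeq2 for the comparison. Their versions, the annotation and the strand used in counting are not given in these sources. The deposited base mean is a signal, the mean over 6 livers of counts divided by size factors. The log2 folds were deposited by the authors as shrunken values, the largest being 0.101 in size among genes with a base mean under 0.5. Their SE and the Wald statistic are a deposited score each, and the deposited p-value is two-sided with Benjamini-Hochberg adjustment over 14257 genes with a base mean of at least 3.45. Of 18441 genes with a p-value the others have no adjusted p and were left out.

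The table compares the groups and leaves the numerator of its ratio unnamed. The ratio was read as LSD1-LKO over Control because Kdm1a is then lower. Columns with values per sample numbered 0, so no test between livers could be run and the deposited values were used as they stand. The p-values test each fold against its SE, which reflects the spread between these livers only indirectly. Recomputing the adjustment changed no value by more than 1.94e-15. Intervals are fold ± the normal 95% multiple of the SE. Levels per kilobase used the median length of protein-coding GENCODE vM21 transcripts. Coordinates and promoters are from RefSeq on GRCm38.p6, the build called mm10. Of the 53 genes 51 had a promoter window, and Gys2 and Ppp1r3b did not. Motifs were searched as exact letter strings in the 250 bases before each start.

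Members and lists were chosen with earlier results of these data known. Named were every member, the up to 3 called genes of smallest p in each further list and Kdm1a. Slc2a2, Mlxipl, Atf4, Foxo1, Hif1a, Ppargc1a, Eno1b, the overlapping genes and the muscle and globin markers Acta1, Ckm, Mb, Myl1, Mylpf, Hbb-bs and Hba-a2 fall outside this rule. Alternatives were no filter on level, genes of at least 10 CPM, an adjusted p under 0.01, recentred folds, and removal of a lowess trend (span 0.5) on level or on transcript length (13153 genes). Isoform shares by the longest transcript were added after seeing the data. Recomputed p-values and their adjustment were tested on simulated data. Python 3.11.15, scipy 1.17.1 and statsmodels were used.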

Additional observations from a re-analysis of the deposited data

How the results depend on the processing

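The number of called members, 21, lay between 18 and 21 under 5 of the 6 alternatives and was 13 at an adjusted p under 0.01. The falls, 4 as deposited, dropped to 1, Ldha, at that threshold, with recentred folds and without the level trend. The rises stayed between 12 and 18 against 17. Over all tested genes, the rises numbered 935 among genes of at least 10 CPM against 1754, an alternative that tests 7531 genes, and the falls 463 at an adjusted p under 0.01 against 846. Of the 21 called members 13 kept their call under every alternative that could test them, 12 of them risen. Pfkp, Ldhb, Pck2 and the table's Pgm1 are under 10 CPM and were not tested in that alternative. Pgam2, which was not called, turned from 0.02 to −0.024 without the level trend, and the cause was not tested. Aldoa and Pck1 were called in at least 1 alternative. No paired analysis was possible because the table holds no value per liver, although the labels number the mice of both groups alike. Leaving out each liver could not be run for the same reason, so a result that rests on 1 liver could not be recognised, and scarce genes limit what could be detected.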

Other observations

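Some members lie side by side in the genome. Gys2 (chr6:142422612-142473130, GRCm38.p6) and Ldhb (chr6:142490249-142507957) are separated by 17118 bases with no annotated gene between them, and Gys2 fell by 0.33 while Ldhb rose by 1.97 on the log2 scale. Fbp2 and Fbp1 lie 6352 bases apart on chromosome 13, and Fbp1 rose whereas Fbp2, at 0.188 CPM, had a fold of −0.34 ± 0.24 and was not called.

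Eno2, the enolase of neurons, had a row without a symbol, found by its Entrez identifier 13807. Its level was 0.0973 CPM with a fold of 0.07 ± 0.18, and its base mean of 2.01 was below the level at which adjusted p-values begin.

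The E-box CACGTG was in the 250 bases before a start of 9 of 51 members (17.6%), Fbp2, G6pc3, Khk, Ldha, Ldhd, Pfkfb2, Pfkfb3, Pfkm and Ppp1r3c, and of 6.86% of all 27025 genes with a promoter window. Of the 17 risen members 3 had it. The 27025 genes include many that carried no adjusted p, whereas nearly all members did, and the difference in share was not tested. The C/EBP-ATF composite was found in 2 of 51 members (3.92%) and in 3.91% of all genes.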
